A study of Mus musculus with 20 samples.

Results

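The cluster consisted of 4 predicted genes, Gm17167, Gm13301, Gm5859 and Gm10600, which lie next to each other on the plus strand of mouse chromosome 4 (GRCm38, 42206998 to 42242685). They were 4 of the 53465 genes in the deposited tables, and the other 82 genes within 1 Mb of them served as the comparison set. The members were chosen by their difference between trained and non-trained mice, so that difference is described here without a test. Sex played no part in the choice, and differences between the sexes were tested.

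The libraries held poly(A) RNA of wild-type mouse skeletal muscle, made with a strand-directional kit. The groups were trained males, trained females, non-trained males and non-trained females, with 5 libraries each and 20 in all. The labels used here give no muscle, strain, age, training protocol or batch, and nothing in them says that each library came from a separate mouse, so the p-values measure the spread between these libraries. Libraries held 22043145 to 38483572 counts, and 3 counts, the limit that a count of 0 allows, corresponded to 0.078 to 0.136 CPM (counts relative to the size of the library). These limits cover counting error only. The sex markers matched the label in 20 of 20 libraries. The muscle fibre genes Acta1 and Ckm were at 20070 CPM or more and 11410 CPM or more in every library. The library labelled non-trained male 5 stood apart from the rest of its group in the genes described here, and the summed results that rest on it are given with and without it. In the genes Ide and Entpd4, on other chromosomes, non-trained male 5 and trained male 1 each lay nearer the males of the other training state. In females the training groups overlapped in both genes. Whether the training labels of non-trained male 5 and trained male 1 are right was not tested.

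A name beginning with Gm marks a mouse gene model found by annotation, usually without an assigned function. An unprocessed pseudogene is a copy of a gene that arose by duplication of genomic DNA and is not thought to give a working protein. This stretch of mouse chromosome 4 is known for duplicated copies of the chemokine genes Ccl19, Ccl21 and Ccl27 and of the interleukin receptor gene Il11ra. Where copies are nearly identical, a short read fits several of them, and RSEM, the program behind the deposited counts, divides such a read among the candidates by estimation.

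GENCODE M21 lists Gm17167 (ENSMUSG00000091542) as a processed transcript of 2 exons and 5054 bases, from 42206998 to 42235313. Gm13301 (ENSMUSG00000096862) is a transcribed unprocessed pseudogene of 5 exons and 2446 bases, from 42216908 to 42235604. Exon 5 of Gm13301 and exon 2 of Gm17167 overlap on the same strand over 1312 bases (42234002 to 42235313). Gm5859 (ENSMUSG00000073879) is an unprocessed pseudogene of 1 exon and 2324 bases, from 42236859 to 42239182. Gm10600 (ENSMUSG00000083929) is annotated as protein coding, with 1 exon of 2047 bases from 42240639 to 42242685 and a coding part of 669 bases from 42241067 to 42241735. RefSeq places the genes that it calls Gm5859 and Gm10600 elsewhere on this stretch, at 42233241 to 42236503 and at 42244297 to 42244748, so the symbols may not mean the same model in both annotations.

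The transcripts of all 4 members share long identical stretches, and a run that starts at the Gm10600 start codon is shown because no read inside it can be placed in 1 member. It spans 259 bases and occurs at chr4:42232451-42232709 in exon 2 of Gm17167, at chr4:42235324-42235582 in exon 5 of Gm13301, at chr4:42238194-42238452 in Gm5859 and at chr4:42241067-42241325 in Gm10600, always on the plus strand. The same 259 bases were also found in transcripts of 7 other annotated genes, all within 1 Mb. Read 5′ to 3′, the shared stretch is:

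shared by all 4: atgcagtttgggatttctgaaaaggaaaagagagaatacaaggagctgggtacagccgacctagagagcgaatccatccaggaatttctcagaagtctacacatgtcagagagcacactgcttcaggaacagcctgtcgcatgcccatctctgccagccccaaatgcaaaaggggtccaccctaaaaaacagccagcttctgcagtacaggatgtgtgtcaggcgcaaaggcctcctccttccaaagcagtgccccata

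A stretch a little further along shows how few bases tell 3 of the members apart in the coding part of Gm10600. It was chosen as the 100 bases there at which Gm17167 and Gm5859 together differ most from Gm10600. Gm13301 and the rest of the transcripts were not part of that search. The 3 lines below give 100 bases of Gm17167 (chr4:42232769-42232868), Gm5859 (chr4:42238512-42238611) and Gm10600 (chr4:42241385-42241484), plus strand, 5′ to 3′, and the capitals mark the 3 positions at which they are not all the same. Gm17167 differs from Gm10600 at 2 of these positions and Gm5859 differs from Gm10600 at 3.

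Gm17167: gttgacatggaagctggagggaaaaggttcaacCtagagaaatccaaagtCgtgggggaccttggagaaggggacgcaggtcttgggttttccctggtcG
Gm5859: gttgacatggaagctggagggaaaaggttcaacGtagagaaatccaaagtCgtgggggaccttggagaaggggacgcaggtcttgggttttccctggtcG
Gm10600: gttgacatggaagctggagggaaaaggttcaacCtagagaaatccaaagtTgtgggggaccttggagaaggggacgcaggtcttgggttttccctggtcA

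The annotated transcripts were searched for shared windows of 75 bases, read in the direction of transcription. Of the windows of Gm10600, 88.6% occurred in at least 1 other gene, and 85.4% in another member. For Gm13301 the shares were 83.9% and 63.6%, and for Gm5859 83.2% and 72.8%. Gm17167 had the lowest shares, with 59.4% in any other gene and 56.9% in another member. Windows found in no other gene numbered 1987 in Gm17167, 381 in Gm13301, 377 in Gm5859 and 225 in Gm10600. Outside the members, 11 genes within 1 Mb shared at least 1% of their windows with them, and 5 of these shared at least 50% and are called copies here. The copies were Gm3893 (86.2%), Gm13303 (72.6%), Gm13302 (64.3%), Gm2163 (63.2%) and Gm10601 (60.6%). Windows of 60 bases gave 8 copies, adding Gm10593, Gm3892 and Gm17081.

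**Figure D1:**
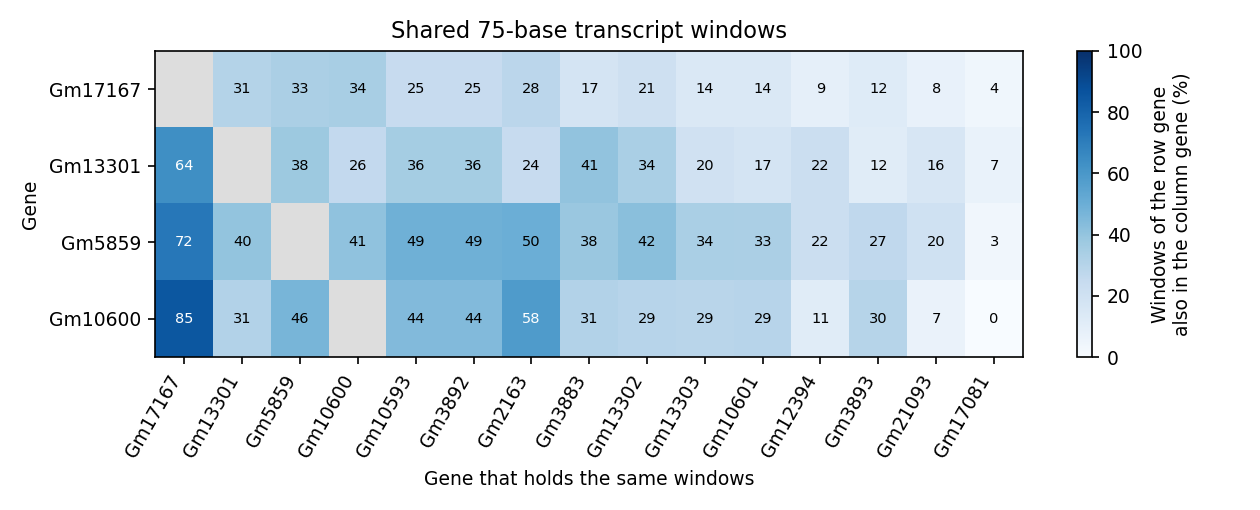
Share of the 75-base transcript windows of each member (rows) that also occur in another member or in 1 of the 11 sharing genes within 1 Mb (columns), in percent, with grey for a gene against itself. The darkest cell is Gm10600 against Gm17167, and the row of Gm17167 is the palest.

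The deposited counts of the members carried this sharing with them. All 64 of their values above 0 differed from a whole number by more than 0.005 (100%), which happens when a read is divided among genes. In the other 33 tested genes within 1 Mb 262 of 645 values above 0 were not whole (40.6%), and over all 15709 tested genes 29.3% were not. Within 1 Mb, 3 pairs of other genes had the same count in every library: Gm3892 with Gm10593, Gm21953 with Gm21586, and Fam205a3 with Fam205a2. The level of any single member therefore depends on how reads were divided, and the sum of the 4 depends on it less, because reads moved between members stay in the sum.

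Summed over the 4 members, expression was low in trained muscle and several times higher in all non-trained libraries but non-trained male 5. Trained males stood at 0.641, 0.777, 0.442, 0.195 and 0.781 CPM. Trained females stood at 0.249, 0.360, 0.298, 0.0482 and 0.671 CPM. Non-trained males stood at 6.36, 6.32, 6.92, 7.74 and 0.732 CPM, and non-trained females at 3.49, 2.76, 4.57, 5.34 and 3.82 CPM. The 10 trained libraries lay below 9 of the 10 non-trained ones, the lowest of which was at 2.76 CPM. Non-trained male 5 lay inside the trained range, with 2 trained libraries above it.

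The sum averaged 0.446 ± 0.258 CPM in trained mice and 4.81 ± 2.15 CPM in non-trained mice (SD, n = 10 each). Without non-trained male 5 the non-trained mean was 5.26 ± 1.70 CPM (SD, n = 9), and that of non-trained males alone was 6.83 ± 0.664 CPM (SD, n = 4). By sex, the means were 0.567 ± 0.250 CPM in trained males and 5.61 ± 2.79 CPM in non-trained males, and 0.325 ± 0.226 CPM in trained females and 3.996 ± 0.992 CPM in those not trained (n = 5 and SD throughout). In counts, the 5 libraries of a group held 95.5 in trained males, 44.5 in trained females, 861 in non-trained males and 579 in non-trained females. The fitted log2 difference of the sum, trained minus non-trained, was -3.44 (SE 0.37) as the mean of both sexes, -3.27 (SE 0.51) in males and -3.60 (SE 0.55) in females. Without non-trained male 5 these differences were -3.58 (SE 0.27), -3.55 (SE 0.37) in males and -3.61 (SE 0.39) in females. Fewer cells that carry these transcripts and less of the RNA per cell cannot be told apart in bulk muscle.

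**Figure D2:**
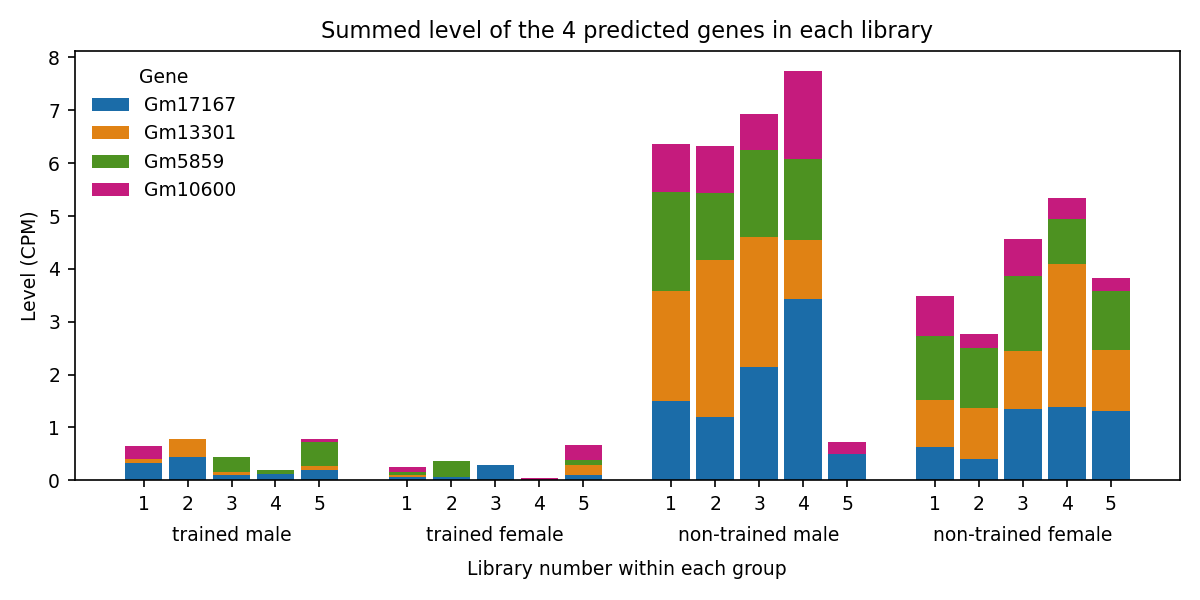
Level of the 4 members stacked per library, in CPM, with the groups trained male, trained female, non-trained male and non-trained female from left to right and libraries numbered within each. All trained libraries are below 0.79 CPM, and non-trained male 5, at 0.732 CPM, is the only non-trained library under 2.76 CPM.

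Of the members taken singly, Gm17167 had 0.329, 0.448, 0.101, 0.110 and 0.198 CPM in trained males, against 1.51, 1.21, 2.14, 3.44 and 0.501 CPM in non-trained males. In females it had 0.0708, 0.0655, 0.298, 0 and 0.0980 CPM in trained libraries, against 0.629, 0.404, 1.35, 1.38 and 1.303 CPM in non-trained libraries. It was the only member whose trained and non-trained libraries did not overlap in either sex, although trained male 2, at 0.448 CPM, lay above non-trained female 2, at 0.404 CPM. Its fitted log2 difference was -3.03 (SE 0.44).

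Gm13301, which overlaps Gm17167, had 0.0752, 0.329, 0.0531, 0 and 0.0780 CPM in trained males, against 2.08, 2.97, 2.47, 1.12 and 0 CPM in non-trained males. In trained females it had 0.0224, 0, 0, 0 and 0.184 CPM, against 0.889, 0.967, 1.09, 2.71 and 1.16 CPM in non-trained females. The trained libraries lay below all non-trained ones except non-trained male 5, which was listed at 0 with a limit of 0.101 CPM. This member had the largest fitted log2 difference of the 4, -4.36 (SE 0.69), which was -5.28 without trained female 5.

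Gm5859 had 0, 0, 0.288, 0.0851 and 0.453 CPM in trained males, against 1.87, 1.25, 1.63, 1.53 and 0 CPM in non-trained males. For females the values were 0.0670, 0.295, 0, 0 and 0.106 CPM in trained libraries, against 1.21, 1.13, 1.42, 0.857 and 1.12 CPM in non-trained libraries. As for Gm13301, the only non-trained library inside the trained range was non-trained male 5. The fitted log2 difference was -3.23 (SE 0.67).

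Gm10600, the one annotated as protein coding, had 0.237, 0, 0, 0 and 0.0523 CPM in trained males, against 0.893, 0.889, 0.677, 1.65 and 0.231 CPM in non-trained males. Trained females had 0.0891, 0, 0, 0.0482 and 0.283 CPM, against 0.761, 0.260, 0.709, 0.394 and 0.243 CPM in non-trained females. Its groups overlapped in both sexes, since trained female 5 lay above non-trained females 2 and 5 and trained male 1 above non-trained male 5. Its fitted log2 difference was -3.14 (SE 0.62), which was -3.96 without trained male 1.

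**Figure D3:**
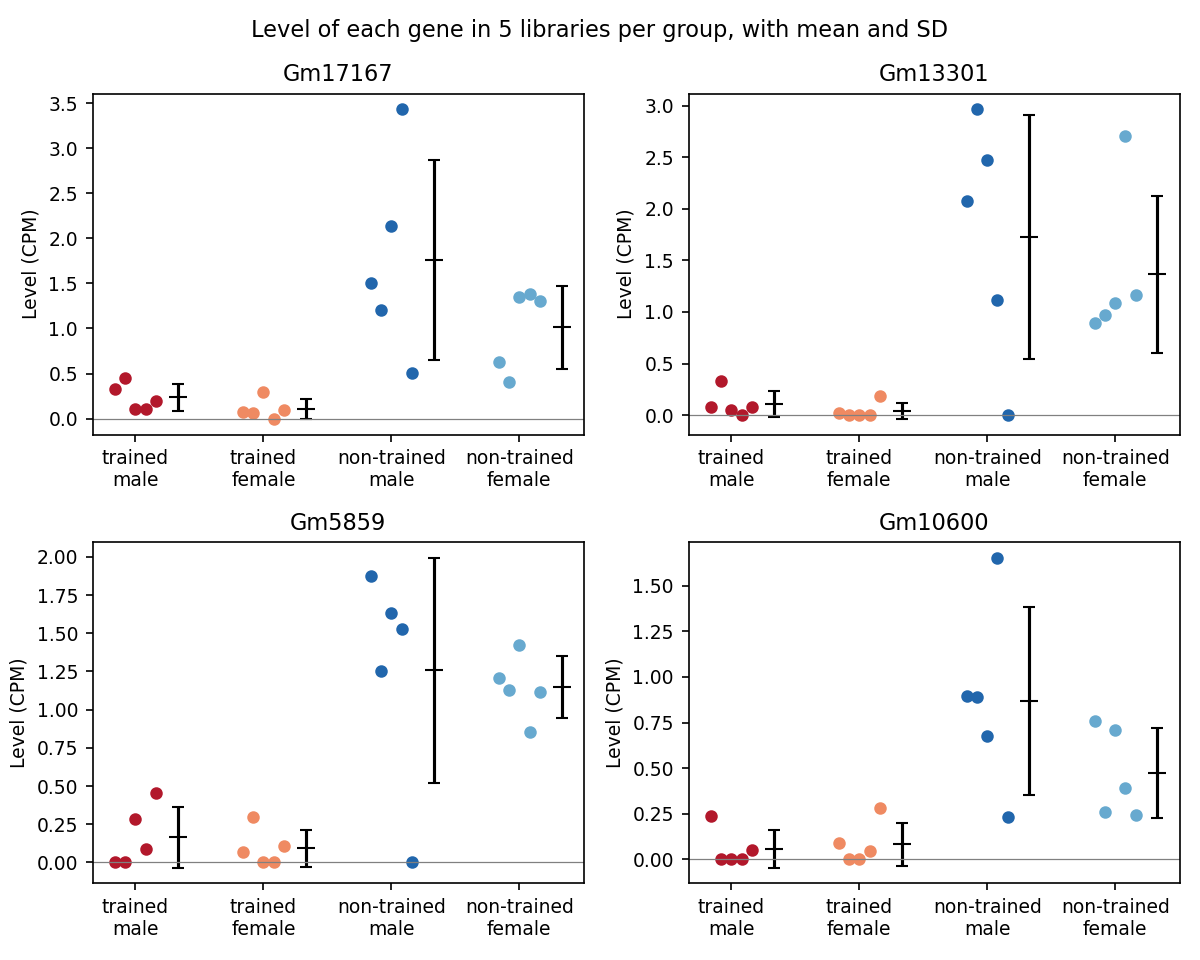
Level of each member in CPM for 5 libraries per group (points), with the group mean and SD beside them as a black bar. In each panel the trained groups lie near 0, and the lowest non-trained male point, the library numbered 5, is at 0 for Gm13301 and Gm5859.

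In males 1 of 4 members had all 5 trained libraries below all 5 non-trained ones, against 0.547% of all tested genes. In females 3 of 4 members did, Gm10600 being the exception, against 0.719% of all tested genes. All 4 members passed the filter on low counts, which they passed through the non-trained libraries. Gm17167 and Gm13301 were the only genes past an adjusted p of 0.05 for the mean training difference in edgeR, 2 of 15709 or 0.0127%, and nothing is read from that since this contrast chose the members. Other tools differed: limma-voom called 0 of 4 members for training in the mean or in either sex, while DESeq2 called 3 of 4 in males and 2 of 4 in females and gave the members no adjusted p for the mean. Without a single library, the number of members past that threshold ran from 0 to 3 of 4. It was 0 without trained male 4, trained female 1, trained female 2, non-trained male 4 or non-trained female 3, and 3 without non-trained male 5.

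The members contributed to the sum in changing proportions. In the 9 non-trained libraries other than non-trained male 5, Gm17167 held 14.6% to 44.4% of the summed level, Gm13301 14.5% to 50.7%, Gm5859 16.1% to 41.0% and Gm10600 6.35% to 21.8%. Non-trained male 5 differed in this too, with 68.5% from Gm17167, 31.5% from Gm10600 and none from the others. Per length, in TPM (transcript abundance scaled for length and depth), non-trained libraries averaged 0.974 ± 0.610 for Gm13301, 0.794 ± 0.340 for Gm5859, 0.509 ± 0.344 for Gm10600 and 0.423 ± 0.284 for Gm17167 (SD, n = 10 each). Without non-trained male 5 the order was the same, at 1.08 ± 0.535, 0.882 ± 0.207, 0.544 ± 0.345 and 0.452 ± 0.285 TPM (SD, n = 9 each). Both with and without it, each gap between neighbours in that order was smaller than the larger of their SDs.

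Across the 20 libraries the members followed each other, with Spearman rho from 0.70 (Gm17167 with Gm5859) to 0.81 (Gm17167 with Gm13301). These values hold the training difference that chose the genes, and the genes share reads. After the mean of each group was taken away, rho ran from -0.005 (Gm17167 with Gm5859) to 0.55 (Gm17167 with Gm13301), the pair that overlaps in the genome.

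Male minus female, the sum of the members did not pass the test. As the mean of both training states the log2 difference was 0.66 (SE 0.37, 95% interval -0.06 to 1.37, edgeR adjusted p = 0.229). It was 0.82 (SE 0.58, 95% interval -0.31 to 1.96, edgeR adjusted p = 0.457) in trained mice and 0.49 (SE 0.45, 95% interval -0.39 to 1.37, edgeR adjusted p = 0.563) in non-trained mice. Non-trained males other than library 5 stood at 6.32 CPM or more, against 5.34 CPM or less in non-trained females, and trained males overlapped trained females. Without non-trained male 5 the difference in non-trained mice was 0.76 (SE 0.33, edgeR adjusted p = 0.205). The mean difference then passed at 0.79 (SE 0.26, edgeR adjusted p = 0.0482), and its adjusted p ran from 0.0482 to 0.589 over all alternatives.

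None of the 4 members passed singly for sex in edgeR (0 of 4 as the mean and in each training state, with 1 at an unadjusted p under 0.05, Gm17167 in the mean), nor with DESeq2 or limma-voom. Their mean log2 differences were 0.96 for Gm17167 (SE 0.44, edgeR adjusted p = 0.14), 0.81 for Gm13301 (SE 0.70), 0.44 for Gm5859 (SE 0.66) and 0.13 for Gm10600 (SE 0.74). With 1 library left out they ran from 0.31 to 1.73 for Gm13301, from 0.01 to 0.93 for Gm5859 and from -0.69 to 0.71 for Gm10600, so a single library could set their size. Of all tested genes, 17.9% passed for the mean sex difference, 5.60% for that in trained mice and 5.21% for that in non-trained mice. The training difference of the sum in males minus that in females was 0.33 (SE 0.72, 95% interval -1.08 to 1.75, edgeR adjusted p = 0.999), and 0.06 (SE 0.47) without non-trained male 5. For this interaction 0 of 4 members and 0% of all tested genes passed in edgeR, while 656 genes had an unadjusted p under 0.05. For the interaction 1 gene, no member, was called by DESeq2 and 0 by limma-voom.

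The rest of the interval served as the comparison set for shared reads and copy number, and genomic copy number itself was not measured. Of the 82 other genes within 1 Mb, 33 passed the filter on low counts and 9 were listed at 0 in every library. Of the 11 genes that share at least 1% of their windows with the members, only Gm12394 (22.8% shared) was among the 33. Its log2 training difference was 0.04 (SE 0.77). The fits of the 33 therefore do not cover the other sharing genes. None of the 33 was called for training in edgeR, with 4 at an unadjusted p under 0.05, and none in limma-voom or DESeq2. For the mean, DESeq2 gave an adjusted p to 12352 genes, so some of the 33 may have had none. The 33 had a median log2 difference, trained minus non-trained, of -0.03, against 0.00 over all tested genes. Single values ran from -0.94 (Gm13304) to 0.90 (Dnaic1, an axonemal dynein gene).

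The 8 tested genes nearest the cluster by start position, 4 on each side, reach from 41755228 (Galt) to 42773993 (Ccl21a). Genes that did not pass the filter lie between them. Of the 8, Gm13304 had the largest training difference. It averaged 3.01 ± 0.888 CPM in trained mice and 5.69 ± 2.59 CPM in non-trained mice (SD, n = 10 each), and the groups overlapped. Its log2 difference was -0.94 (SE 0.29, edgeR adjusted p = 0.366). On the same side lie Galt, an enzyme of galactose use, at 19.98 ± 2.91 CPM in trained mice and 19.1 ± 3.53 CPM in non-trained mice (SD, n = 10 each), the skin chemokine gene Ccl27a (4.80 ± 0.988 CPM in trained mice and 4.57 ± 1.24 CPM in non-trained mice) and Gm20878, below 0.4 CPM on average in both. On the other side Gm2564 (-0.72, SE 0.60), Gm21955 (-0.01, SE 0.17), Ccl19 (-0.64, SE 0.57) and Ccl21a (-0.08, SE 0.20) did not pass for training. Ccl19 and Ccl21a encode chemokines that draw lymphocytes and dendritic cells through the receptor CCR7. Ccl21a, the one well detected, stood at 6.41 ± 1.37 CPM in trained mice and 6.79 ± 2.17 CPM in non-trained mice (SD, n = 10 each).

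**Figure D4:**
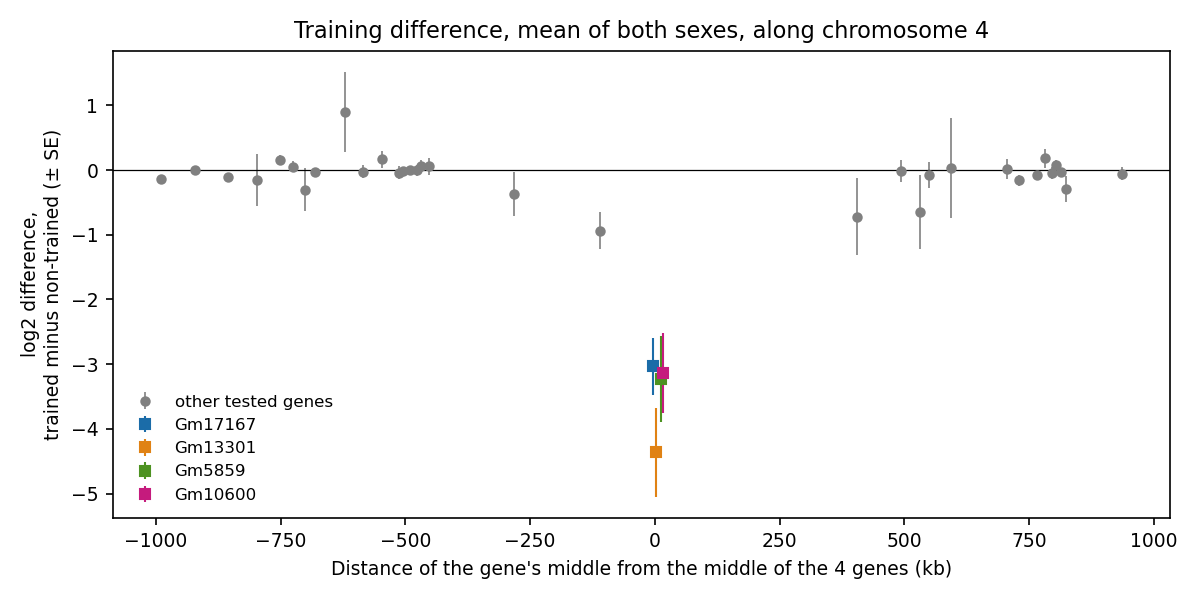
Fitted log2 difference, trained minus non-trained (mean of both sexes, bars are SE), for the 4 members (coloured squares) and the 33 other tested genes within 1 Mb (grey points), against distance in kb from the middle of the cluster. The members lie between -3.03 and -4.36, and the others between -0.94 and 0.90. Of the 11 sharing genes, only Gm12394 is among the grey points.

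The second copies that carry a chemokine symbol were given few or no reads. Ccl21a had values that were not whole in 20 of 20 libraries, so counts here also depend on how reads were divided. Whether other Gm models of the interval are chemokine copies was not examined. Ccl21b, at 42255767 to 42256432, and Ccl27b were listed at 0 in all 20 libraries, and the pseudogenes Ccl19-ps1 and Ccl19-ps3 did not exceed 0.319 CPM and 0.0377 CPM in any library. Il11ra2, the second copy of the interleukin 11 receptor gene, averaged 0.0431 ± 0.0358 CPM in trained mice and 0.0724 ± 0.0738 CPM in non-trained mice (SD, n = 10 each). Both means were under the lowest limit for 3 counts, but single libraries were not. Il11ra2 was at 0.0923 to 0.189 CPM in non-trained males and 0 to 0.0456 CPM in non-trained females. In trained libraries Il11ra2 was at 0.0196 to 0.0792 CPM in males and 0 to 0.115 CPM in females. Its paralogue Il11ra1 and Cntfr, a receptor gene for ciliary neurotrophic factor, were tested and not called for training or sex.

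The 5 copies were too low to test. Together they averaged 0.0339 CPM in trained males, 0.0300 CPM in trained females, 0.184 CPM in non-trained males and 0.0858 CPM in non-trained females. Adding them to the members gave 0.478 ± 0.257 CPM in trained mice and 4.94 ± 2.18 CPM in non-trained mice (SD, n = 10 each), so few of the reads had been given to these 5 copies. All 11 sharing genes together stood at 0.711 ± 0.289 CPM in trained mice and 1.22 ± 0.731 CPM in non-trained mice (SD, n = 10 each). That was more than the 0.446 CPM of the summed members in trained mice and less than their 4.81 CPM in non-trained mice. Gm17081, a pseudogene between Gm5859 and Gm10600, averaged 0.0247 ± 0.0340 CPM in trained mice and 0.238 ± 0.366 CPM in non-trained mice, with 1.18 CPM in non-trained female 2. Whether the division of reads or the number of genomic copies has a part in the members' difference was not tested.

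For sex, 8 of the 33 neighbours were called in edgeR (6 higher and 2 lower in males), against 17.9% of all tested genes. Dnaic1 was higher by 2.81 (SE 0.58, edgeR adjusted p = 0.0024) on the log2 scale and Phf24 by 0.67 (SE 0.16, edgeR adjusted p = 0.00656). The difference of Dnaic1 rests on few counts, 0 to 5 per female library and 1 to 22 per male library. Enho, which encodes the secreted peptide adropin, was higher by 0.58 (SE 0.09, edgeR adjusted p = 0.000279), and Fam219a by 0.33 (SE 0.06, edgeR adjusted p = 0.000613). Vcp, the gene of an ATPase that extracts ubiquitinated proteins, and Fam214b were higher by 0.15 (SE 0.05) and 0.18 (SE 0.05). Pigo, an enzyme of GPI anchor synthesis, fell by 0.38 (SE 0.10) and Dcaf12 by 0.17 (SE 0.06). In trained mice 6 of the 33 were called and in non-trained mice 2, Enho and Phf24, and no neighbour was called for the interaction in edgeR, with 3 at an unadjusted p under 0.05.

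The genes whose levels across the 20 libraries were most like the sum of the members, by Spearman rho of log2 CPM, lay on other chromosomes. They were Chd2, a chromatin remodeller (rho 0.84), Zbtb7a, a transcriptional repressor (0.81), Tcf20 (0.80), Gm14964 (0.76) and Fgf6, a fibroblast growth factor known from muscle (0.76). All 20 libraries share the training groups, and after the group means were taken away the values were 0.54, 0.25, 0.39, 0.52 and 0.65. Fgf6 averaged 4.60 ± 1.52 CPM in trained mice and 6.55 ± 1.68 CPM in non-trained mice (SD, n = 10 each), and its lowest library was non-trained male 5 at 2.68 CPM. Chd2 averaged 46.4 ± 4.25 CPM in trained mice and 56.7 ± 6.96 CPM in non-trained mice (SD, n = 10 each), with 41.7 CPM in non-trained male 5. That library was not among the lowest for Zbtb7a (40.1 CPM, 10 libraries below it), Tcf20 (16.8 CPM, 10 below) or Gm14964 (0.588 CPM, 7 below). The 33 neighbours had rho from -0.55 to 0.63, the highest being Gm13304.

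The summed markers of every cell type examined overlapped between the training groups. Beside the types below, these were muscle fibre, blood endothelium, Schwann cell, B and T cell and adipocyte. The 4 adipocyte markers summed to 19.5 to 225.1 CPM in trained libraries and 37.4 to 136.6 CPM in non-trained libraries. The 5 lymphatic endothelial markers, of interest beside Ccl21a, summed to 18.6 to 38.1 CPM in trained libraries and 13.4 to 36.4 CPM in non-trained libraries. The 4 macrophage markers summed to 40.6 to 484.5 CPM in trained libraries and 25.8 to 205.9 CPM in non-trained libraries, and the 3 erythroid markers to 137.6 to 490.7 CPM in trained libraries and 116.2 to 2224 CPM in non-trained libraries. The 3 germ cell and testis markers stayed at 0.470 to 1.36 CPM in trained libraries and 0.490 to 1.23 CPM in non-trained libraries, and Prm1 was at 0 in 13 libraries. Their part in the members' difference was not tested.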

How the data were processed

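Poly(A) RNA of 20 muscle libraries was sequenced on an Illumina NextSeq, per the labels' protocols. For each library the authors deposited RSEM's expected counts of every gene and, beside them, TPM values, per the file headers. The submitters' processing notes name STAR 2.5.1, Trim Galore, cutadapt, limma, edgeR, RSEM 1.3.1 and GRCm38 without their roles. Which annotation release was used is not given there. GENCODE M21 matched 53360 of 53465 gene identifiers and gave symbols, coordinates and transcript sequences, and RefSeq coordinates are of GRCm38 as well. The unmatched identifiers held 0.00673% of the counts. The kit marks strand, but the counting setting is not given.

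Levels are unrounded expected counts divided by library sizes scaled by TMM (CPM). For tests, expected counts were rounded and filtered (filterByExpr, minimum count 10, 15709 genes left), and the 4 groups were fitted together in edgeR 4.0.16 (R 4.3.3, robust quasi-likelihood test, Benjamini-Hochberg adjustment over all genes, threshold 0.05). In a further fit 1 row holding the sum replaced the 4 member rows (15706 genes). SE is the log2 difference divided by the square root of F. The procedure was tested on simulated counts. Named are the members, and within 1 Mb the copies, the 4 tested genes on each side, called genes, chemokine and related receptor genes, plus the 5 most like genes elsewhere. Gm17081 and the pairs with equal counts were named after their values were seen. The members and lists were chosen with earlier results of these data known. Alternatives were DESeq2 1.42.0, limma-voom (limma 3.58.1), RLE size factors, library size alone, other filters, unrounded counts, summed TPM (pseudocount 0.1, on the log2 scale), copies added to the sum, and each library left out.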

Additional observations from a re-analysis of the deposited data

Results flagged for a closer look

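In 10 of 40 sets of 5 libraries examined, 1 library lay far from the other 4 by Dixon's criterion (a gap over 0.71 of the range), and chance gives about 1 in 20 for independent, normally distributed values. Many of these values are at or near 0 and some sets share genes, so the 2 rates cannot be compared. For the summed members it was non-trained male 5 at 0.732 CPM, against 6.32 to 7.74 CPM in the rest of its group. With the copies added the same library was lowest, at 0.879 CPM. It was highest for Gm21955, a gene model outside the cluster, at 7.83 CPM. Gm13301 was high in trained male 2 (0.329 CPM), in trained female 5 (0.184 CPM) and in non-trained female 4 (2.71 CPM). Gm10600 was high in trained male 1 (0.237 CPM). Gm17081 was high in non-trained female 2 (1.18 CPM). Gm2163 was listed at 0 in the rest of the group beside trained female 4 (0.134 CPM) and non-trained female 2 (0.0876 CPM), which gives the widest possible gap at any level.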

How the results depend on the processing

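The summed training difference stayed negative in all 30 alternatives, from -3.66 to -3.30 with a library left out and from -3.46 (DESeq2) to -3.00 (summed TPM) otherwise. The summed sex difference ran from 0.51 to 0.88 with a library left out and from 0.37 (summed TPM) to 0.71 otherwise, and passed only without non-trained male 5 (0.79, edgeR adjusted p = 0.0482). Gm17167 passed for sex only without trained female 3 (1.33, edgeR adjusted p = 0.0483). For Gm10600 it ran from -0.69 to 0.71 with a library left out, and limma-voom gave -0.030, and -0.38 for Gm5859. In limma-voom Gm13301 had 0.28 for sex. The summed sex difference in trained mice ran from 0.54 (without trained female 4) to 1.28 (without trained female 5) and in non-trained mice from 0.35 (without non-trained male 4) to 0.76 (without non-trained male 5), or 0.15 with summed TPM. The interaction of the sum ran from 0.06 (without trained female 4) to 0.79 (without trained female 5), and was 0.90 in limma-voom, and none of these passed. The cause of these changes was not tested. Without a low-count filter 5 neighbours were called for sex, not 8, among 72 tested, and 6 to 9 were called with a library left out. No neighbour was called for training in any alternative. DESeq2's own filter left the members, and possibly some neighbours, without an adjusted p for the mean training difference, and the stricter filter left out Gm10600. The sum of members and 60-base copies was added after the data were seen, and its values lay within the ranges above. No paired analysis was possible because the labels give no replicate numbers shared between groups. Trained libraries hold few counts of these genes, so differences between them rest on little depth.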

Other observations

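Non-trained male 5 also stood apart in genes on other chromosomes, chosen here after their values were seen. Ide, which encodes the insulin-degrading enzyme, was at 331.5 CPM there and at 165.5 to 173.4 CPM in the other 4 non-trained males, while trained male 1 was at 169.9 CPM and the other 4 trained males at 231.9 to 315.8 CPM. Entpd4, a nucleotide-hydrolysing enzyme gene, was at 158 CPM in trained male 1 and at 62.4 to 86.8 CPM in the other 4 trained males, against 68.5 CPM in non-trained male 5 and 129.3 to 139.3 CPM in the other 4 non-trained males. The summed members, by contrast, were low in both trained male 1 (0.641 CPM) and non-trained male 5 (0.732 CPM). In females the training groups overlapped in both genes. Ide was at 147.7 to 278.3 CPM in trained females and 172.8 to 263.3 CPM in non-trained females. Entpd4 was at 72.4 to 120.2 CPM in trained females and 110.6 to 152.9 CPM in non-trained females. Whether the training labels of non-trained male 5 and trained male 1 are right was not tested, and the genomic copy number of Ide and Entpd4 was not measured.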
